A study of Homo sapiens with 24 samples.

Results

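The 7 genes described here encode the cyclin-dependent kinase (CDK) inhibitors: CDKN1A (protein p21), CDKN1B (p27) and CDKN1C (p57) of the CIP/KIP family, and CDKN2A (p16), CDKN2B (p15), CDKN2C (p18) and CDKN2D (p19) of the INK4 family. They were chosen by name, as the members of the 2 families, from a table of 60668 genes, with earlier results of these data known. Their transcripts were followed in MCF-10A, an immortalised human mammary epithelial line labelled wild-type and called parental below, and in MCF-10A MYC-ER, which carries the transcription factor MYC as a fusion with an oestrogen receptor domain (MYC-ER). Such fusions are held inactive until 4-hydroxytamoxifen (4-OHT) binds them. Both lines grew as 3-dimensional cultures in Matrigel and received 1 µM 4-OHT for the last 0, 8, 24 or 48 h before all libraries were collected together on day 5, so the 0 h groups had no 4-OHT. Each of the 8 groups has 3 replicates, 24 libraries in all, and the labels give neither the promoter that drives the fusion nor whether the MYC-ER line is 1 clone. Whether replicates came from separate cultures on separate occasions is not given either, so p-values measure the spread between these libraries.

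CDK inhibitors bind CDKs and their cyclin partners and hold back the phosphorylation of the retinoblastoma protein that lets cells copy their DNA. INK4 proteins bind CDK4 and CDK6 and keep D-type cyclins away, while CIP/KIP proteins bind cyclin-CDK complexes, mainly those of CDK2. In mammary epithelium MYC is known to counter these brakes, in part by repressing inhibitor genes through the zinc finger factor MIZ1 and in part by raising cyclins that tie the inhibitor proteins up. MCF-10A cells are known to have lost the part of chromosome 9 that holds CDKN2A and CDKN2B.

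Library totals ran from 136860029 to 182438505 counts, and values are given as CPM (counts scaled to library size and TMM factor), or as log2 changes from edgeR's quasi-likelihood test with Benjamini-Hochberg adjustment over 22158 genes. The basal mammary markers KRT5, KRT14, KRT17, TP63, ITGA6 and EGFR were present in every library, with KRT5 at group means of 6922 to 13284 CPM. KRT14 was lower in MYC-ER (626 to 1634 CPM) than in parental groups (6071 to 9725). In MYC-ER cells between 0 and 8 h KRT14 went from 626 to 1524 CPM, KRT17 from 323 to 1738 and ITGA6 from 441 to 1460. Over the same step KRT5 went from 12528 to 9972 CPM and TP63 from 141 to 80.6. Of the leukocyte markers reported here, PTPRC reached 2 counts at most, CD3E none, and CD14 had group means of 2.93 to 7.56 CPM. Mitochondrial transcripts took 9.24 to 9.71% of counts in the MYC-ER 0 h libraries, 3.86% in parental 0 h replicate 1 and 5.51 to 7.78% in the other 20. The parental 0 h libraries, the reference of all parental changes, of the interactions and of the lines at 0 h, stood apart from each other: chi-square per degree of freedom between replicate pairs was 159 to 261 there and 8.45 to 63.3 in the other 7 groups. In the parental line the log2 changes after 4-OHT followed the GC content of the transcripts (Spearman's rho across 9784 genes of -0.62, -0.66 and -0.65 at the 3 times), against 0.02, -0.06 and 0.03 in MYC-ER. For single inhibitors, values with that GC trend removed are therefore given beside the parental results they alter. The gene lists read further below were not refitted this way, so their parental counts and medians are not corrected for the trend.

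Of the 7 genes, 5 passed the filter on low counts and were tested. CDKN2A and CDKN2B had 0 counts in all 24 libraries, which in the smallest library allows up to 0.0219 CPM, counting error only. On a per-length scale (group mean CPM per kilobase of exon), CDKN1A was the highest of the 5 in every group, from 73.2 in MYC-ER at 24 h to 114.9 in parental cells at 0 h. CDKN1A made up 75.9 to 81.1% of the summed per-length level of the 5 genes in the 4 parental groups. In MYC-ER cells that share was 54.1, 79.6, 66.0 and 57.6% at 0, 8, 24 and 48 h. CDKN1C supplied 32.6% of the sum before 4-OHT and 11.5% after 8 h of it in MYC-ER cells, and 5.44 to 10.2% in the parental groups. The 2 detected INK4 genes were low: CDKN2C supplied 0.940 to 5.81% and CDKN2D 0.697 to 1.59%.

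**Figure D1:**
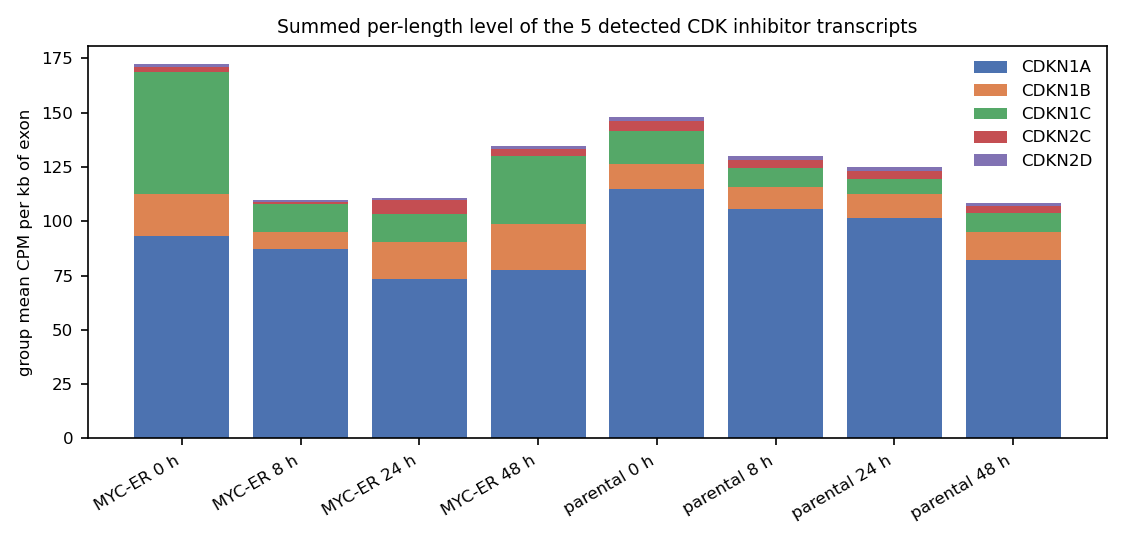
Stacked bars give the group mean CPM per kilobase of exon of the 5 detected CDK inhibitor transcripts in each line and time of 4-OHT. CDKN1A is the largest segment of every bar, and CDKN1C is a wide segment in MYC-ER at 0 h (56.2) and 48 h (31.0) and a narrow one in the other groups.

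**Figure D2:**
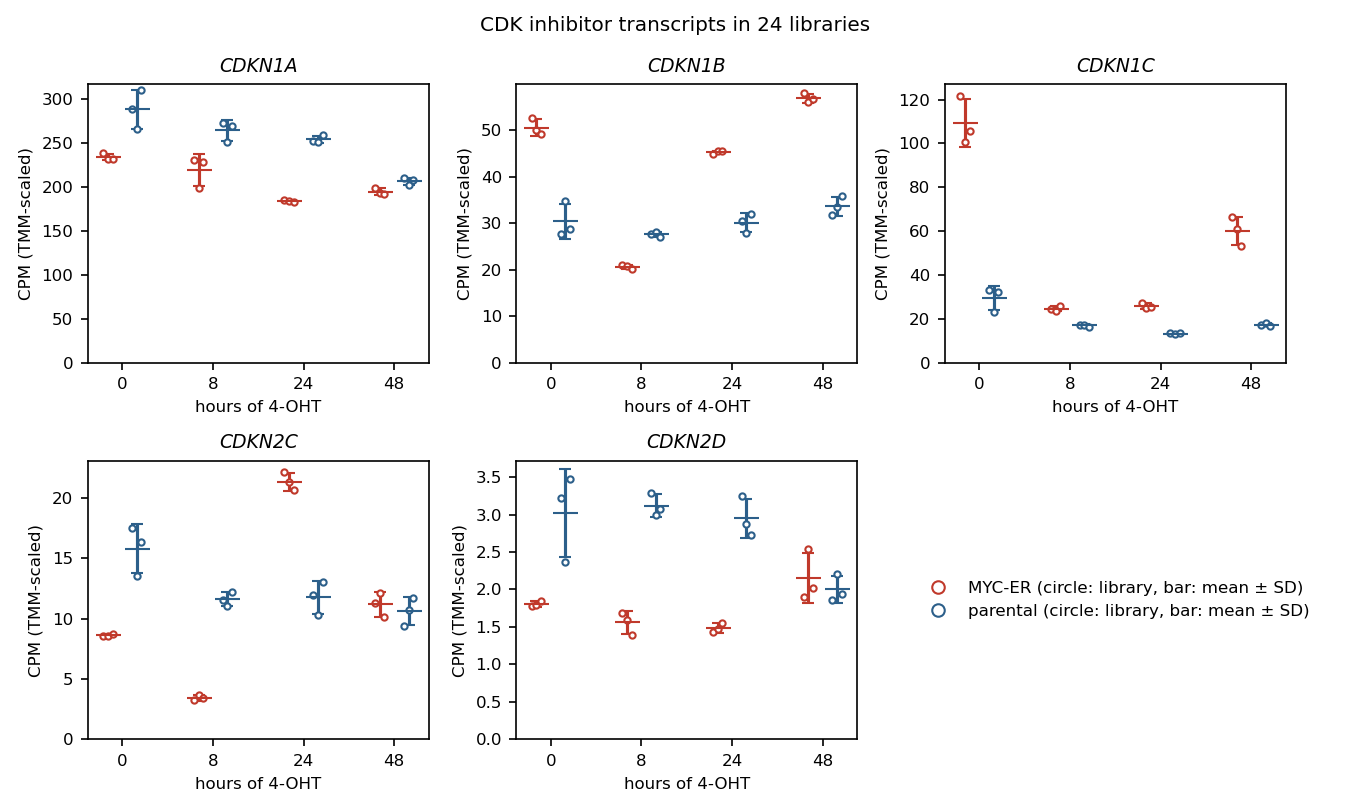
Each circle is 1 library's TMM-scaled CPM, plotted against hours of 4-OHT for the 5 detected inhibitors, with bars at the mean ± SD of 3 libraries. In MYC-ER cells CDKN1B and CDKN2C were lowest at 8 h, and CDKN1C was highest at 0 h.

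Promoter windows of 300 bases, 250 before to 50 after a RefSeq start (GRCh38.p14), were found for 6 of the 7 genes. None was found for CDKN1C, the inhibitor that fell most at 8 h in MYC-ER cells, so its promoter was not searched. Those of CDKN1A, whose change at 8 h did not pass the test, and of CDKN1B and CDKN2C, which fell at 8 h in MYC-ER cells, are printed 5′ to 3′. Capitals mark matches, on either strand, to any of 5 motifs: the E-box bound by MYC (CACGTG), a short p53 motif (CATGTC or CATGCC), a forkhead site (GTAAACA), the GC box bound by SP1 (GGGCGG) and an E2F site (TTTCCCGC, TTTGGCGC or TTTGCCGC). Matches that touch run together in capitals.
CDKN1A chr6:36678464-36678763, plus strand: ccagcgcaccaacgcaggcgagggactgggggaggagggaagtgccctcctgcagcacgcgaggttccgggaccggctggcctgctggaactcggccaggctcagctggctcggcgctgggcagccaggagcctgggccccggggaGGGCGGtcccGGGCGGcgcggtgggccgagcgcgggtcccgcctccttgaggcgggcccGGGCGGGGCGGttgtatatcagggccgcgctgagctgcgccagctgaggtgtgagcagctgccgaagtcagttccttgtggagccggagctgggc
CDKN1B chr12:12717118-12717417, plus strand: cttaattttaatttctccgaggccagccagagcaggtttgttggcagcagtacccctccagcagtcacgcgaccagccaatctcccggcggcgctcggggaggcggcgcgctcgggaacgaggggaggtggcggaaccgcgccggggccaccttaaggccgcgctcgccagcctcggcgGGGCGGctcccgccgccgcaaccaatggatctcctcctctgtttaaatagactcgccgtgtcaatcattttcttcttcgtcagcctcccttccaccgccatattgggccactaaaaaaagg
CDKN2C chr1:50960495-50960794, plus strand: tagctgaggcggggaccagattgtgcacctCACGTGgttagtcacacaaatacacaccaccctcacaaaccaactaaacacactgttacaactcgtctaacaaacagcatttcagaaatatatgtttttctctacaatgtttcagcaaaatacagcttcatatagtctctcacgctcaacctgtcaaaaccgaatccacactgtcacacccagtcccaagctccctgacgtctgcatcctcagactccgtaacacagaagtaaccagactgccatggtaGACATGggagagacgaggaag
CDKN2C chr1:50968456-50968755, plus strand: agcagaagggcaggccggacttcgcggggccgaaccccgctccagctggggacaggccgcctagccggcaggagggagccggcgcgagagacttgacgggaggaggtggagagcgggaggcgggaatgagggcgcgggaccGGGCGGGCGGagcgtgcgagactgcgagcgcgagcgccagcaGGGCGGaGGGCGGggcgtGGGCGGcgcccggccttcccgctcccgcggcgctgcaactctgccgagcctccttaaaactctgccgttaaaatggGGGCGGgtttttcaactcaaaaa
CDKN2C chr1:50969995-50970294, plus strand: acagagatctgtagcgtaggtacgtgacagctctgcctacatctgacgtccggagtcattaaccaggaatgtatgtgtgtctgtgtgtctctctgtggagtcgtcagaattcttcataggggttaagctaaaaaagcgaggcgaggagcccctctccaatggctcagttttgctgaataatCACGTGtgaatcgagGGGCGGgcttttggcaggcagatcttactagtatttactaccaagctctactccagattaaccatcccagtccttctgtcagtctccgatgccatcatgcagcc
The CDKN1A window holds 4 GC boxes and the CDKN1B window 1, and neither holds any of the other motifs. For CDKN2C, the first window holds an E-box 220 bases before the start and a p53 motif after it, the second holds 6 GC boxes, and the third holds an E-box 69 bases before the start and 1 GC box. The CDKN2D window holds 3 GC boxes. Across 35116 windows of the same length, 45.0% hold a GC box, 17.1% a p53 motif, 7.26% an E-box, 3.42% the forkhead site and 2.85% an E2F site. These are matches of letters only, and sites outside the windows or spelled otherwise were not searched.

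After 8 h of 4-OHT in MYC-ER cells, 3 of the 5 tested inhibitors fell and none rose, when 67.6% of all tested genes changed (32.2% rose and 35.4% fell). CDKN1C fell by 2.15 on the log2 scale, CDKN2C by 1.33 and CDKN1B by 1.29, and their libraries did not overlap with those at 0 h. The changes of CDKN1A (-0.09) and CDKN2D (-0.21) did not pass the test, although their libraries did not overlap either, as for 73.5% of all tested genes. The median change of the 5 was -1.29, against -0.10 for all genes tested. A lower CPM in these bulk RNA samples is a lower share of the scaled counts. It can be fewer cells of a kind, less of that RNA per cell or more of other RNA, and the measurement cannot tell these apart. With upper-quartile scaling, which moved the median of all genes to -0.24, the calls were 5 in place of 3, CDKN1A and CDKN2D being added at -0.23 and -0.35.

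The inhibitors then separated. At 24 h against 0 h, when 61.6% of all tested genes changed (30.4% higher, 31.2% lower), CDKN1A, CDKN1B and CDKN1C were lower, CDKN2C was higher and CDKN2D did not pass. At 48 h against 0 h, when 44.1% of all genes changed (23.4% higher, 20.7% lower), CDKN1A and CDKN1C were lower and CDKN1B and CDKN2C higher. The libraries of all 5 did not overlap with those at 0 h at either time, as for 70.7% and 62.3% of all genes. With scaling by library size alone 73.8% of the genes called at 48 h were higher, against 53% as reported. The comparisons at 8, 24 and 48 h share the 0 h libraries. Between 8 and 24 h, when 55.5% of all genes changed (28.4% rose, 27.1% fell), CDKN1B and CDKN2C rose and CDKN1A fell. CDKN1C, at 0.07 in this step, passed with library size alone and after GC correction, at 0.28 and 0.24 (adjusted p = 0.0170 and 0.00277). Between those times 51.2% of calls were rises, or 67.8% with library size alone. Between 24 and 48 h, when 53.7% of all genes changed (28.2% rose, 25.5% fell), CDKN1B, CDKN1C and CDKN2D rose and CDKN2C fell. Libraries did not overlap for 3 of the 5 in the first of these steps and for all 5 in the second, and for 65.0% and 68.0% of all genes.

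In parental cells, 2, 3 and 4 of the 5 inhibitors were lower after 8, 24 and 48 h, and none was higher as fitted. Removing the GC trend took CDKN2D at 24 h from -0.03 to 0.31, past the threshold (adjusted p = 0.0448). In the same comparisons 31.0%, 42.9% and 40.5% of all tested genes changed, with 16.0%, 21.7% and 20.1% of all genes were lower and 15.0%, 21.2% and 20.4% higher. Libraries did not overlap with 0 h for 2, 3 and 4 of the 5, and for 33.9%, 43.1% and 39.0% of all genes. CDKN1C and CDKN2C were lower at all 3 times, CDKN1A at 24 and 48 h and CDKN2D at 48 h. CDKN1B passed the test at none of the 3, with changes of -0.14, -0.01 and 0.15. At 8 h the calls were 4 with upper-quartile scaling and 1 when only the 2 groups were fitted.

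**Figure D3:**
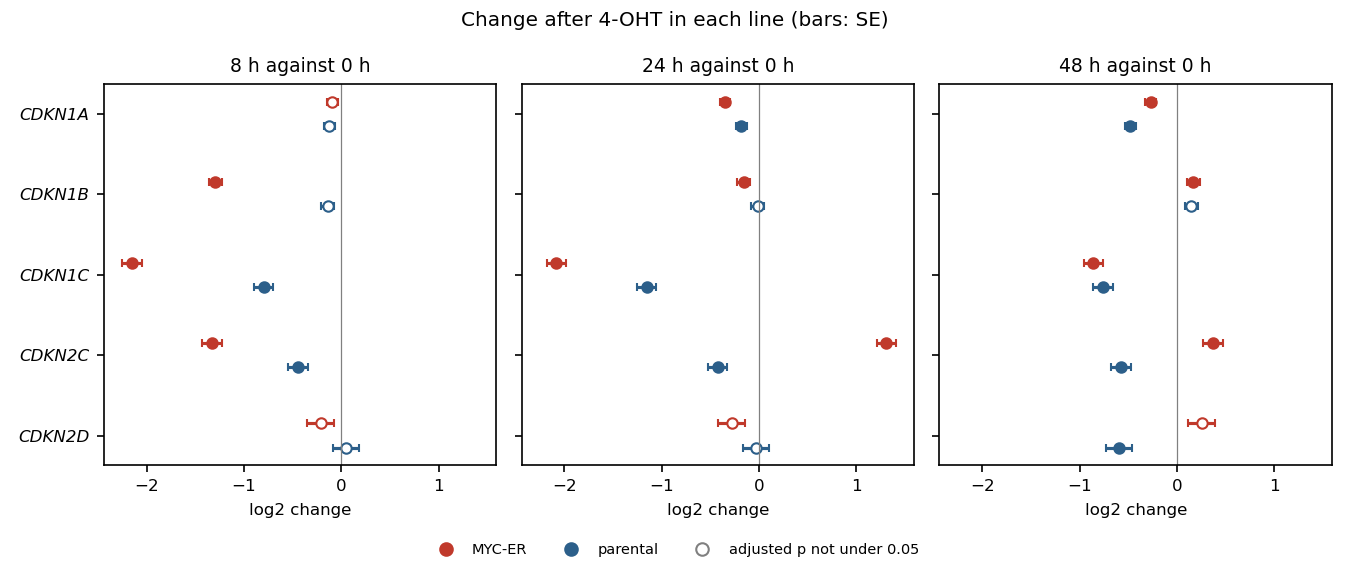
Points are log2 changes against 0 h with SE bars for the 5 tested inhibitors, in MYC-ER and parental cells at 8, 24 and 48 h. Filled points passed an adjusted p of 0.05: CDKN1C lies left of 0 in both lines at each time, while CDKN2C in MYC-ER cells moves from -1.33 (8 h) to 1.31 (24 h).

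CDKN1A, on chromosome 6 (36676460 to 36687339, plus strand), encodes p21, the inhibitor best known as a target of p53. In MYC-ER cells the libraries read 238.59, 232.23 and 231.47 CPM at 0 h, 230.96, 198.86 and 228.22 at 8 h, 185, 184 and 182 at 24 h, and 199, 193 and 192 at 48 h. Parental libraries read 288, 266 and 310.2 CPM at 0 h, 273, 251 and 269.8 at 8 h, 252, 251 and 259 at 24 h, and 209.99, 202 and 208 at 48 h. The highest group mean (parental 0 h, 288 ± 22.1 SD, n = 3) was 1.57 times the lowest (MYC-ER 24 h, 184 ± 1.15), the narrowest spread among the 5 genes. In MYC-ER cells the changes were -0.35 ± 0.06 and -0.27 ± 0.06 (log2, SE) at 24 and 48 h, with adjusted p of 1.17e-05 and 0.000485. With library size alone the 48 h value became -0.11 (adjusted p = 0.0861), and the change from 8 to 24 h went from -0.26 to -0.05 (adjusted p = 0.401).

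The 8 h change of CDKN1A in MYC-ER cells (-0.09, adjusted p = 0.144) passed the threshold with library size alone (-0.19), with upper-quartile scaling (-0.23), with at least 10 counts in every library (-0.13) and with the GC trend removed (-0.14). In parental cells CDKN1A changed by -0.18 and -0.48 at 24 and 48 h, with adjusted p of 0.0119 and 4.42e-06. Removing the GC trend turned the 24 h value to 0.08 (adjusted p = 0.212) and left -0.23 at 48 h, and without parental 0 h replicate 3 the 24 h value was -0.11 (adjusted p = 0.151). An antisense transcript, DINOL, overlaps CDKN1A by 951 bases, 32 of them exonic, but reached 31 counts at most, against 28029 or more for CDKN1A.

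CDKN1B, on chromosome 12 (12715058 to 12722371, plus strand), encodes p27, the inhibitor of cyclin E-CDK2 that is usually high in resting cells. In MYC-ER cells it read 49.1 to 52.6 CPM in the 3 libraries at 0 h, 20.9, 20.7 and 20.2 at 8 h, 44.9, 45.4 and 45.5 at 24 h, and 57.9, 56.0 and 56.6 at 48 h. The 3 libraries at 8 h lay below every other library, parental ones included. The 0 h and 24 h libraries did not overlap. The 8 h level was 2.45-fold lower than at 0 h (adjusted p = 1.86e-13), and the 24 h level was 2.20-fold above that at 8 h (adjusted p = 3.68e-12). Parental libraries stayed between 27.0 and 35.7 CPM in all 4 groups, and at 0 h the MYC-ER level was 1.66 times the parental one.

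At 24 h CDKN1B was 0.16 ± 0.07 below its 0 h level (adjusted p = 0.0424) and at 48 h 0.17 ± 0.07 above it (adjusted p = 0.0421), both small and near the threshold. The 24 h call was lost without MYC-ER 0 h replicate 1 or 2 and without any of the 3 MYC-ER 24 h replicates (adjusted p from 0.0676 to 0.146), and with library size alone the value was -0.04. It was also lost with DESeq2 size factors (adjusted p = 0.0941), the DESeq2 Wald test (0.092), no filter (0.0675) and the GC trend removed (0.0594). The 48 h call was lost without MYC-ER 0 h replicate 2 or 3 and without any of the 3 MYC-ER 48 h replicates (adjusted p from 0.0694 to 0.137), and with library size alone the value was 0.33. Without the filter on low counts the 48 h call was lost too (adjusted p = 0.0833). In parental cells, CDKN1B passed at 8 h without 0 h replicate 1, the library with the low mitochondrial share (-0.20, adjusted p = 0.0415). At 48 h it passed without 0 h replicate 2 (0.25, adjusted p = 0.000374) and without 48 h replicate 1 (0.19, adjusted p = 0.0497). Parental CDKN1B also passed at 8 h with upper-quartile scaling (-0.18, adjusted p = 0.0255) and at 48 h with library size alone (0.20, adjusted p = 0.0314).

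CDKN1C, on chromosome 11 (2883213 to 2885773, minus strand), encodes p57, an imprinted inhibitor linked to exit from the cell cycle during development. It varied most of the 5: the highest group mean was 8.27 times the lowest. MYC-ER libraries read 121, 100.5 and 106 CPM at 0 h, 24.5, 23.4 and 25.7 at 8 h, 27.3, 24.8 and 25.2 at 24 h, and 66.3, 60.9 and 53.4 at 48 h. Every library at 0 h stood above every library at 48 h, and both times stood above 8 and 24 h, which overlapped. The level was 4.45-fold lower at 8 h (adjusted p = 3.93e-14), 4.23-fold lower at 24 h (adjusted p = 8.09e-14) and 1.81-fold lower at 48 h (adjusted p = 2.64e-07). From 24 to 48 h it rose 2.33-fold (adjusted p = 8.47e-10).

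Parental cells read 33.0, 23.3 and 32.0 CPM of CDKN1C at 0 h, 17.4, 17.0 and 16.4 at 8 h, 13.3, 12.9 and 13.4 at 24 h, and 17.3, 18.1 and 16.6 at 48 h. Replicate 2 at 0 h was low among its group but still above all 9 treated libraries. The changes at 8, 24 and 48 h were -0.80, -1.16 and -0.76 (adjusted p = 7.94e-06, 7.55e-08 and 1.30e-05). Removing the GC trend gave -0.50, -0.75 and -0.39, all still past the threshold. The imprinted transcript KCNQ1OT1, of the same chromosome region, changed by -0.91 at 8 h in MYC-ER cells (adjusted p = 0.00124). Of 4 tested neighbours of the inhibitor genes it was the 1 that fell at 8 h, and 3 rose. Against 0 h, 2 of the 4 were higher and 0 lower at both 24 and 48 h, so KCNQ1OT1 was not lower then. Of all genes, 67.6%, 61.6% and 44.1% changed at the 3 times.

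Some markers of other cell types moved with CDKN1C, and others did not. The summed level of 6 fibroblast markers was 369 to 376 CPM in MYC-ER libraries at 0 h. It was 78.4 to 129 CPM in the 9 later MYC-ER libraries and 76.7 to 132 in the parental ones. COL1A1 (215 CPM at 0 h, 55.5 at 8 h) and DCN (157 and 49.4) made up nearly all of it, LUM had at most 51 counts, and COL1A2, COL3A1 and PDGFRA had 10 counts or fewer in every library. Of the 4 endothelial markers CDH5 was at 0, and their sum in MYC-ER libraries ran from 36.8 to 42.0 CPM before 4-OHT. The sum was 1.14 to 1.83 CPM across 8 and 24 h, 25.3 to 26.7 at 48 h, and 1.38 to 4.18 in parental libraries. KDR gave 39.1 CPM of the MYC-ER 0 h sum. PECAM1 went the other way, at 0.113, 1.01, 0.250 and 0.333 CPM over the 4 MYC-ER times, and VWF was at 0.0392 CPM or less in them. Of 4 general epithelial markers (KRT8, KRT18, EPCAM and CDH1), the summed level in MYC-ER libraries was highest at 8 h, with 806 to 859 CPM. Before 4-OHT this sum was 348 to 368 CPM. The 24 h libraries held 562 to 585 CPM, those of 48 h 634 to 662, and parental libraries 414 to 581. EPCAM alone was at 1.93, 23.8, 75.8 and 38.9 CPM over the 4 MYC-ER times and between 6.25 and 6.74 in the parental groups. KRT18 (503 CPM at 8 h, 227 at 24 h) and CDH1 (187 and 113) fell while EPCAM and KRT8 (122 and 155) rose. The part of these markers, and of the higher mitochondrial share at 0 h, in the result for CDKN1C was not tested.

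CDKN2C, on chromosome 1 (50960745 to 50974633, plus strand), encodes p18, an INK4 inhibitor of CDK4 and CDK6. It was the 1 gene of the 5 whose change in MYC-ER cells turned from a fall at 8 h to a rise at 24 h with both past the threshold in each alternative run. The libraries read 8.57, 8.58 and 8.72 CPM at 0 h, 3.20, 3.67 and 3.41 at 8 h, 22.1, 21.3 and 20.6 at 24 h, and 11.3, 12.2 and 10.1 at 48 h. The 4 times did not overlap. CDKN2C was 2.52-fold lower at 8 h than at 0 h (adjusted p = 1.93e-10), then 6.23-fold higher at 24 h than at 8 h (adjusted p = 6.72e-15) and 1.91-fold lower at 48 h than at 24 h (adjusted p = 6.08e-08). Against 0 h it was 2.48-fold higher at 24 h (adjusted p = 2.06e-10) and 1.30-fold higher at 48 h (adjusted p = 0.00442).

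Parental CDKN2C libraries read 17.5, 13.5 and 16.4 CPM at 0 h, 11.5, 11.1 and 12.2 at 8 h, 11.96, 10.3 and 13.0 at 24 h, and 9.38, 10.7 and 11.7 at 48 h. The changes were -0.45, -0.43 and -0.58 (adjusted p = 0.00202, 0.00150 and 0.000124). Removing the GC trend gave -0.25, -0.17 and -0.33, and the 24 h value no longer passed (adjusted p = 0.127). Fitting only the 2 groups left -0.45 at 8 h with an adjusted p of 0.0545.

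CDKN2D, on chromosome 19 (10566462 to 10569059, minus strand), encodes p19, the other INK4 inhibitor detected, and was the lowest of the 5 in CPM. MYC-ER libraries read 1.78, 1.79 and 1.85 CPM at 0 h, 1.68, 1.596 and 1.39 at 8 h, 1.43, 1.47 and 1.55 at 24 h, and 1.90, 2.54 and 2.01 at 48 h. Parental libraries lay between 2.37 and 3.48 CPM at 0, 8 and 24 h and between 1.86 and 2.21 at 48 h. None of its MYC-ER changes against 0 h passed the test, although with library size alone the 48 h change went from 0.25 to 0.42 and passed (adjusted p = 0.0151). The level at 48 h was 1.45 times that at 24 h (adjusted p = 0.00231). The parental fall at 48 h was 0.59 ± 0.14 (log2, SE, adjusted p = 0.00141), with -0.27 (adjusted p = 0.0855) after the GC trend was removed and -0.59 (adjusted p = 0.0569) when only the 2 groups were fitted.

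CDKN2A and CDKN2B lie on chromosome 9 (21967753 to 21995301 and 22002903 to 22009363, minus strand, GRCh38). Their neighbours fell into silent and expressed genes. MTAP, beside them, had 0 counts in all 12 MYC-ER libraries and at most 16 in the parental ones. The antisense transcript CDKN2B-AS1 had at most 2 counts, and CDKN2A-DT had none. Expressed genes lay on both sides: KLHL9 had 2147 to 4833 counts and IFNE 44 to 196 on one side, and DMRTA1 had 61 to 194, ELAVL2 396 to 1625 and CAAP1 2546 to 4769 on the other. Farther out, HACD4 and IFNA1 also had 0 counts, on either side of KLHL9. A silent gene and a lost gene both give 0 counts.

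**Figure D4:**
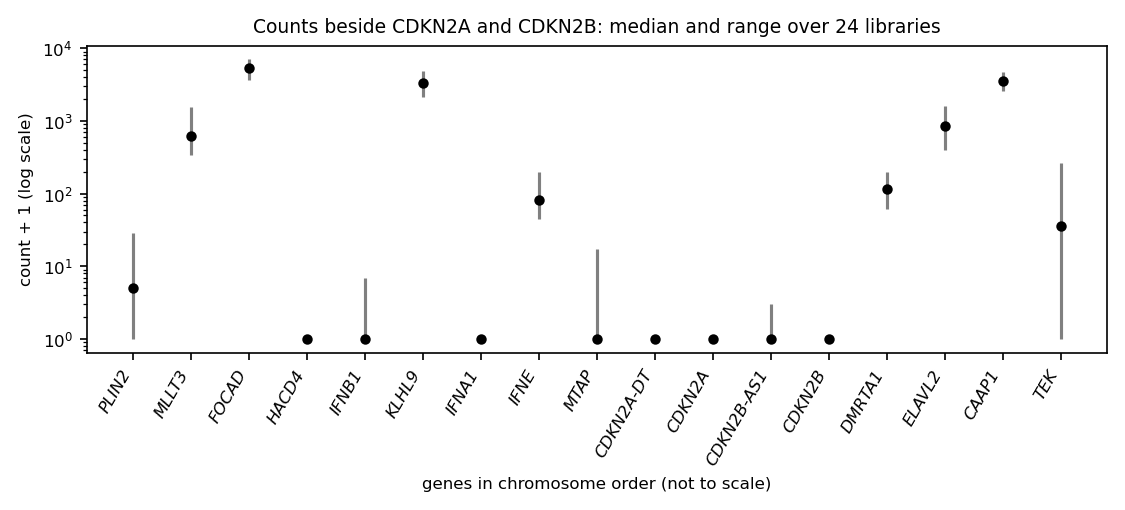
Points are the median count (plus 1, log axis) over 24 libraries and lines the range, for 17 genes in their order along chromosome 9. CDKN2A, CDKN2B and CDKN2A-DT sit at 0 counts, between IFNE (44 to 196) and DMRTA1 (61 to 194).

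The lines differed in all 5 tested inhibitors before any 4-OHT, when 64.3% of all genes tested differed (31.6% higher and 32.7% lower in MYC-ER cells, with no overlap for 65.0%). MYC-ER cells had more CDKN1C (3.71 times, 109 ± 10.9 against 29.4 ± 5.33 CPM, adjusted p = 4.20e-13) and more CDKN1B (1.66 times, adjusted p = 2.69e-09). They had less CDKN1A (-0.30), CDKN2C (-0.87) and CDKN2D (-0.74), with adjusted p of 7.28e-05, 1.16e-07 and 6.11e-05. Removing the GC trend gave -0.07 for CDKN1A (adjusted p = 0.195) and -0.45 for CDKN2D. The proliferation marker MKI67 was at 1.74 CPM in MYC-ER at 0 h and 209 in parental cells at 0 h, and its part in these differences was not tested.

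At 8 h all 5 inhibitors differed between the lines again, as did 48.6% of all genes (23.1% higher, 25.5% lower, 60.8% without overlap). Only CDKN1C was higher in MYC-ER cells (1.45 times), CDKN1B now being lower (-0.42). CDKN2C was 3.39-fold lower in MYC-ER cells, and CDKN2D had a log2 difference of -1.001. At 24 h, when 49.4% of all genes differed (23.5% higher, 25.8% lower, 60.4% without overlap), CDKN1B, CDKN1C and CDKN2C were higher (0.59, 0.96 and 0.86) and CDKN1A and CDKN2D lower (-0.47 and -0.99). Of all calls at 24 h, 47.6% were higher, or 60.7% with library size alone. At 48 h, when 56.7% of all genes differed (27.3% higher, 29.4% lower, 66.8% without overlap), only CDKN1B (1.69 times) and CDKN1C (3.46 times) passed. CDKN2C went from 0.08 to 0.22 with library size alone and then passed too (adjusted p = 0.0431). Of all calls at 48 h, 48.2% were higher, or 59.8% with library size alone.

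The order of the 8 groups differed by gene. CDKN1A ran from the 3 earlier parental groups at the top to MYC-ER at 48 and 24 h at the bottom, and 3 of its 7 neighbouring pairs overlapped. CDKN1B had MYC-ER 48, 0 and 24 h at the top without overlap, then the 4 parental groups, of which neighbours overlapped, then MYC-ER 8 h alone. CDKN1C had MYC-ER 0 and 48 h alone at the top, then parental 0 h, MYC-ER 24 h and MYC-ER 8 h overlapping in that order, then the treated parental groups. CDKN2C had MYC-ER 24 h and parental 0 h at the top, 4 overlapping groups between 10.6 and 11.8 CPM, and MYC-ER 0 h and 8 h at the bottom. CDKN2D had parental 8, 0 and 24 h overlapping at the top and MYC-ER 8 and 24 h overlapping at the bottom.

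The difference between the lines in their response (change in MYC-ER cells less change in parental cells) was tested as an interaction. At 8 h it passed for 3 of 5 inhibitors and for 55.2% of all genes (27.3% positive, 27.8% negative): CDKN1C (-1.36), CDKN1B (-1.16) and CDKN2C (-0.89) fell more in MYC-ER cells. At 24 h it passed for 2 of 5 and for 54.5% of all genes (27.7% positive, 26.8% negative), CDKN1C (-0.93) and CDKN2C (1.74). At 48 h it passed for 3 of 5 and for 45.0% of all genes (23.6% positive, 21.4% negative), CDKN2C (0.95), CDKN2D (0.85) and CDKN1A (0.21). Of all calls at 48 h, 52.5% were higher, or 63.5% with library size alone. Once the GC trend was removed all 5 passed at 8 h, at -0.21 for CDKN1A and -0.57 for CDKN2D. Without the GC trend CDKN1A (-0.33) and CDKN2D (-0.48) passed in addition at 24 h, and at 48 h CDKN1A became -0.02 (adjusted p = 0.808) while CDKN1C passed at -0.42. CDKN2D at 48 h still passed, at 0.55. For the 48 h difference of CDKN1C (-0.10, adjusted p = 0.612) and of CDKN1B (0.02, adjusted p = 0.874) the test was not passed.

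The kinases and cyclins that the inhibitors bind were read from 12 genes. At 8 h in MYC-ER cells 9 rose and 2 fell, with a median of 1.23 against -0.10 for all genes, of which 67.6% changed. CCND1, the D-type cyclin that partners CDK4 and CDK6, went from 28.4 ± 1.71 to 169 ± 1.07 CPM (2.58, adjusted p = 6.73e-17), CDK4 from 76.8 to 176 and CCNE1, a partner of CDK2, from 7.12 to 25.6. CDK1 and CCNA2, of late S phase and mitosis, were lower at 8 h (-0.17 and -0.33), while the mitotic cyclin CCNB1 rose from 5.69 to 19.5 CPM (1.78) and CCNB2 was at -0.13, which did not pass. At 24 h all 12 were above 0 h, with a median of 1.58 against -0.02 for all genes, CDK1 at 3.90 and CCNB2 at 5.54. At that time 61.6% of all genes changed, and 30.4% were higher. From 24 to 48 h all 12 fell, with a median of -1.36 against 0.06, when 53.7% of all genes changed (25.5% fell). MYC-ER cells at 0 h were below parental cells in all 12 (median -2.02 against 0.00), when 64.3% of all genes differed (32.7% lower). In parental cells 5 rose and 1 fell at 8 h, 5 rose and 2 fell at 24 h, and 1 rose and 6 fell at 48 h. The parental medians were 0.17, 0.14 and -0.18, and 31.0%, 42.9% and 40.5% of all genes changed. 

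**Figure D5:**
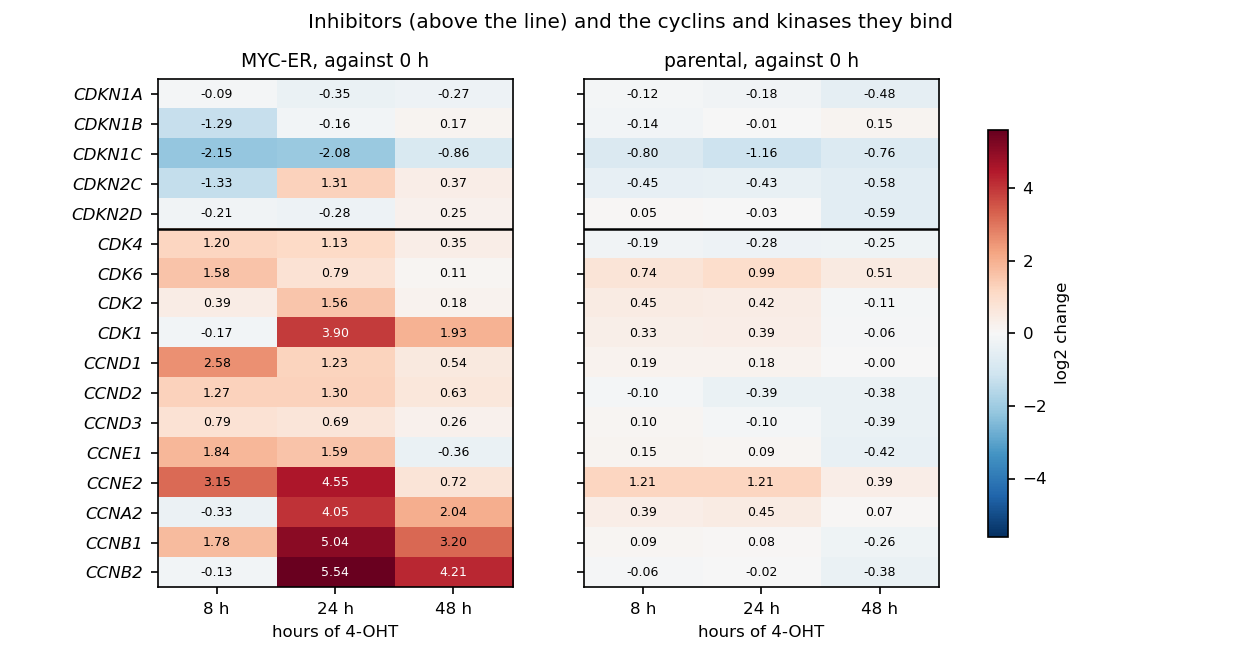
Each cell gives the log2 change against 0 h, by color and number, of the 5 tested inhibitors (above the line) and 12 cyclin and CDK genes, in MYC-ER and parental cells. At 8 h in MYC-ER cells CDKN1B, CDKN1C and CDKN2C are negative while CCND1 (2.58), CCNE1 (1.84) and CDK4 (1.199) are positive, and at 24 h CDKN2C (1.31) is positive with all 12.

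Transcription factors known to act on the inhibitor genes were read from 21 genes. In MYC-ER cells 8 rose and 11 fell at 8 h (median -0.31 against -0.10 for all genes), 4 rose and 11 fell at 24 h, and 4 rose and 8 fell at 48 h. The forkhead factors FOXO1 and FOXO3, known activators of CDKN1B, were at 203 ± 4.25 and 349 ± 13.8 CPM at 0 h and 63.0 ± 4.36 and 99.8 ± 5.06 at 8 h. Their changes were -1.69 and -1.81 at 8 h, -1.83 and -1.92 at 24 h, and -0.84 and -1.21 at 48 h, all past the threshold. KLF4, a known activator of CDKN1A, was lower at the same times (-1.97, -2.57 and -0.70). KLF6, another factor of the list, had its highest value among the 24 libraries, 315 CPM, in MYC-ER cells at 8 h. ZBTB17, which encodes MIZ1, was 0.17 higher at 8 h (adjusted p = 0.0315), and reads of MYC, in which the gene and the fusion cannot be told apart, were at 387, 795, 321 and 248 CPM over the 4 times. In parental cells 6 of the 21 rose and 7 fell at 8 h, 10 rose and 6 fell at 24 h, and 11 rose and 4 fell at 48 h (medians -0.06, 0.18 and 0.19). Of all genes, 67.6%, 61.6% and 44.1% changed at the 3 times in MYC-ER cells and 31.0%, 42.9% and 40.5% in parental cells. The MYC-ER count at 24 h, 15 of 21, was near the share of all genes, but 11 of 21 were lower, against 31.2% of all genes. At 8 and 48 h in MYC-ER cells 2 and 9 of the 21 did not pass. The parental counts, not corrected for the GC trend, lay above their shares at each time. The list was chosen with earlier results of these data known, so these counts only describe it, and no excess was tested.

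Target genes of p53 other than CDKN1A were read from 22 genes. In MYC-ER cells 6 rose and 13 fell at 8 h, with a median of -0.67 against -0.10 for all genes and -0.09 for CDKN1A. BBC3, the apoptosis gene PUMA, fell from 9.91 ± 0.802 to 1.72 ± 0.179 CPM, and the DNA repair gene DDB2 from 48.5 ± 0.249 to 8.25 ± 0.405. GDF15 changed by -3.51, while MDM2, the negative regulator of p53, was 0.38 higher and PLK3 3.13 higher. At 24 h 7 were higher and 12 lower than at 0 h, and at 48 h 10 were higher and 3 lower (median 0.23 against 0.03), with BBC3 at 0.90 and DDB2 at 0.76. CDKN1A at 48 h was at -0.27. In parental cells 1 rose and 9 fell at 8 h, 4 rose and 9 fell at 24 h, and 7 rose and 9 fell at 48 h (medians -0.14, -0.09 and -0.08). These counts stand beside 67.6%, 61.6% and 44.1% of all genes changed in MYC-ER cells and 31.0%, 42.9% and 40.5% in parental cells.

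Genes that set the stability or location of the inhibitor proteins were read from 16 genes. In MYC-ER cells 12 rose and 2 fell at 8 h (median 0.53 against -0.10), 10 rose and 3 fell at 24 h, and 5 rose and 6 fell at 48 h. SKP2 and CKS1B, which mark p27 for degradation, went from 35.1 and 23.9 CPM at 0 h to 51.2 and 29.4 at 8 h and 83.5 and 88.2 at 24 h. DTL, which targets p21 in S phase, changed by 4.71 and 6.84 at 8 and 24 h. DDB1, UHMK1 and UBAC1, of the same list, had their highest library values (494, 270 and 104.5 CPM) in MYC-ER cells at 0 h. In parental cells 5 rose and 2 fell at 8 h, 5 rose and 4 fell at 24 h, and 4 rose and 7 fell at 48 h (medians -0.02, 0.04 and -0.03). The shares of all genes changed were again 67.6%, 61.6% and 44.1% in MYC-ER cells, and 31.0%, 42.9% and 40.5% in parental cells. No protein was measured.

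The genes whose log2 CPM followed each inhibitor most closely over the 24 libraries were taken from about 10760 genes with at least 10 CPM in their highest group. Pearson's r is given as a description, since the 24 points share 8 groups and the same scaling. For CDKN1B the closest was ZNF608 (r = 0.987), which went from 16.0 to 1.09 CPM in MYC-ER cells at 8 h and stood at 22.2 at 48 h, then H2BC20P, H2BC19P, ZMYM3 and PCSK1. H2BC20P and H2BC19P are histone pseudogenes whose reads may come from near-identical copies. For CDKN1C it was GAA (r = 0.984), at 218, 71.8, 60.3 and 141 CPM over the 4 MYC-ER times, then CKB, CDK5RAP3, NOP53 and TPRA1. For CDKN2C it was C21orf58 (r = 0.959), at 5.53, 2.54, 22.1 and 9.29 CPM, then BRD8, TMEM14A, H2AZ2 and HNRNPC. For CDKN1A it was ATP6V1E1 (r = 0.949), then DAPK3, TERF2IP, CREB3 and TAX1BP3. For CDKN2D it was POLD4 (r = 0.934), then EPS8L1, LRRFIP2, S100A4 and CHMP2A.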

How the data were processed

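Poly(A)-selected, stranded libraries were sequenced as paired 150-base reads, per the labels' protocols. The authors' deposited values for the 24 libraries are raw counts, whole numbers for each gene without normalization. The submitters' processing notes name Trimmomatic 0.39, STAR, StringTie 2.1.3b and GRCh38. They do not say how the counts were made or whether strand was used. If StringTie made them, a count is an estimate from coverage and the limit of 3 counts is approximate. Limits from a count of 0 cover counting error only, since reads without molecular identifiers are not independent molecules.

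Symbols were matched for 60340 of 60668 rows. Coordinates and exon lengths came from GENCODE 29 (GRCh38), promoters from RefSeq (GRCh38.p14). After filterByExpr and TMM scaling, edgeR 4.0.16 under R 4.3.3 was used with a mean for each of the 8 groups (common biological coefficient of variation 0.151). Quasi-likelihood F tests, two-sided, were adjusted by Benjamini-Hochberg within each contrast, threshold 0.05. SE is the log2 change divided by the square root of F. Log2 CPM used a prior count of 2. The script was tested on simulated data.

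The members, gene lists, markers and motifs were chosen with earlier results of these data known. Named genes are the members, list genes, MYC, MKI67 and, per member, the 5 genes of highest r. Replicates within groups differed beyond sampling noise, so each library counted as 1 sample. Alternatives were DESeq2 1.42.0 size factors and Wald test, library size alone, upper quartile, no filter, at least 10 counts in every library, a replicate block, GC trend removal (lowess span 0.3, GC known for 98.0% of tested genes), only the groups compared, and each library left out. 1 marker gene is not reported here.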

Additional observations from a re-analysis of the deposited data

Results flagged for a closer look

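In 8 cases the change after 4-OHT differed between the lines by the interaction test (MYC-ER change minus parental change, edgeR's quasi-likelihood test with Benjamini-Hochberg adjustment). The test passed for 3, 2 and 3 of the 5 inhibitors at 8, 24 and 48 h, and for 55.2%, 54.5% and 45.0% of all genes. At 8 h the cases were CDKN1B at -1.16 (adjusted p = 8.28e-10), CDKN1C at -1.36 (adjusted p = 3.39e-08) and CDKN2C at -0.89 (adjusted p = 1.80e-05). CDKN1B fell by 1.29 in MYC-ER cells and was at -0.14 in parental cells, and the MYC-ER libraries at 8 h were all below the parental ones. At 24 h they were CDKN1C at -0.93 (adjusted p = 7.94e-06) and CDKN2C at 1.74 (adjusted p = 9.70e-10), where CDKN2C rose in MYC-ER cells and fell in parental cells.

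At 48 h they were CDKN2C at 0.95 (adjusted p = 1.36e-05), CDKN2D at 0.85 (adjusted p = 0.00113) and CDKN1A at 0.21 (adjusted p = 0.0322). CDKN2D fell by 0.59 in parental cells and was at 0.25 in MYC-ER cells, which did not pass. The CDKN1A value passed in 6 of 12 fits that left out 1 library. It was lost without MYC-ER 0 h replicate 2 or 3, MYC-ER 48 h replicate 1, parental 0 h replicate 1 or 3 and parental 48 h replicate 2, with values from 0.13 to 0.21 and adjusted p from 0.0526 to 0.161. The other 7 passed in all fits that left out 1 library. With the GC trend removed CDKN2D at 48 h was at 0.55 and still passed, and CDKN1A was at -0.02 and did not.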

How the results depend on the processing

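Of 75 comparisons of single inhibitors, 52 passed the threshold and 42 of these passed under each alternative run. Over 1215 alternative values 1125 kept direction and side of the threshold, 35 lost the call, 25 gained one and 30 changed sign, 2 of these in called results. The cause was not tested. Counts of inhibitors called moved beyond 1.5 times with upper-quartile scaling at 8 h (5 for MYC-ER, 4 for parental), with only the groups compared (1, parental 8 h) and with the GC trend removed (interaction, 5 at 8 h and 4 at 24 h). Signs changed with the GC trend removed for CDKN2D in MYC-ER 24 against 8 h (0.089) and parental 24 h (0.31), and for CDKN1A in MYC-ER 48 against 24 h (-0.0059), parental 8 h (0.068), parental 24 h (0.076), interaction 8 h (-0.21) and interaction 48 h (-0.024). They changed with library size alone for CDKN2D in MYC-ER 24 against 8 h (0.14) and parental 24 h (0.001174), CDKN1B in parental 24 h (0.013), CDKN1A between lines at 48 h (0.055) and its interaction at 8 h (-0.094). Upper-quartile scaling changed CDKN2D in MYC-ER 24 against 8 h (0.035), CDKN1A between lines at 48 h (0.0548) and its interaction at 8 h (-0.069), which was -0.0079 with at least 10 counts in every library. With 1 library left out, ranges crossing 0 were -0.10 to 0.17 (CDKN2D, parental 8 h), -0.074 to 0.094 (CDKN1B, parental 24 h), -0.18 to 0.10 (CDKN2D, parental 24 h), -0.0070 to 0.15 and -0.033 to 0.18 (CDKN2C and CDKN2D between lines at 48 h), -0.031 to 0.096 (CDKN1A, interaction 8 h), and -0.084 to 0.084 and -0.19 to 0.043 (CDKN1B and CDKN1C, interaction 48 h). The interaction at 24 h was gained for CDKN1A without parental 0 h replicate 3 (-0.24) and for CDKN1B without parental 0 h replicate 2 (-0.25), and CDKN1A at 8 h in parental cells without parental 0 h replicate 2 (-0.18).

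Same-numbered replicates were not shown to be paired: 16 of 84 same-number pairs had r over 0.1, the range was -0.20 to 0.29, and 10 of 24 libraries correlated best with their own number. With a replicate block, CDKN1B in MYC-ER cells missed the threshold at 24 h (-0.16, adjusted p = 0.0530) and 48 h (0.17, adjusted p = 0.0535), and the CDKN1A interaction at 24 h passed (-0.17, adjusted p = 0.0455). The block changed no other call.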

Other observations

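The pocket proteins and E2F factors, which stand downstream of the kinases that the inhibitors hold back, were read from 11 genes. In MYC-ER cells 10 rose and 1 fell at 8 h (median 1.00 against -0.10 for all genes), 9 rose and 1 fell at 24 h and 6 rose and 2 fell at 48 h. E2F1, an activator of S phase genes, went from 0.574 ± 0.158 CPM at 0 h to 9.43 ± 0.268 at 8 h, 21.0 ± 1.45 at 24 h and 2.52 ± 0.220 at 48 h. RBL2, the pocket protein p130 of resting cells, was the 1 gene that fell at 8 h (-0.86, edgeR's quasi-likelihood test, adjusted p = 2.49e-08), and its levels were 132, 73.0, 93.1 and 109 CPM over the 4 times. In parental cells 5 rose and 0 fell at 8 h, 6 rose and 1 fell at 24 h and 5 rose and 3 fell at 48 h. Of all genes, 67.6%, 61.6% and 44.1% changed at 8, 24 and 48 h in MYC-ER cells and 31.0%, 42.9% and 40.5% in parental cells.

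Genes with names like those of the inhibitors that belong to neither family were read from 5 genes. In MYC-ER cells 4 rose and 1 fell at 8 h, 3 rose and 1 fell at 24 h and 2 rose and 2 fell at 48 h, with medians of 0.34, 0.42 and -0.17 against -0.10, -0.02 and 0.03 for all genes and with the shares of all genes changed as above. CDKN3, a phosphatase that acts on CDKs, changed by 0.58 at 8 h, 5.10 at 24 h and 3.77 at 48 h in MYC-ER cells. In parental cells none rose and 1 fell at 8 h, 1 rose and 1 fell at 24 h, and none rose and 3 fell at 48 h. TP73, a relative of p53, changed by -5.47 at 8 h in MYC-ER cells, from 19.4 ± 0.918 to 0.438 ± 0.0246 CPM, and was at 23.2 ± 0.280 at 24 h.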
